A study of Mus musculus with 29 samples.

Results

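Mural cells of the mouse brain were the cells to which the authors' deposited annotation gave the coarse code MC. They numbered 228 of the 55268 cells in 18 brain libraries (0.413%), beside 7627 endothelial cells (code EC). Single cells were profiled by Drop-seq, in which each cell is captured in a droplet with a barcoded bead. The mice were C57BL/6J with no transgene given in the labels, and underwent temporary blockage of a middle cerebral artery (stroke) or sham surgery. Each library pooled several hemispheres, which were digested with papain in the presence of actinomycin D, a transcription inhibitor, and sorted for microglia, leukocytes with high CD45, and CD45-negative endothelial cells with high Ly6C. Mural cells were not among the sorted targets. Ly6c1, a gene behind the Ly6C gate, had 2301 counts scaled to a common library total (CPM) in mural cells and 7546 CPM in endothelial cells. Its level was 972 CPM in sham and 3212 CPM in stroke mural cells. Whether the gate admitted mural cells alike in both conditions was not tested.

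Young mice were males 8 to 10 weeks old: 4 libraries were taken at day 2 after sham surgery, 4 at day 2 after stroke and 4 at day 14 after stroke. Aged mice were 17 to 20 months old: 2 libraries (1 male, 1 female) came from day 2 after sham surgery, 3 (1 male, 2 female) from day 2 after stroke and 1 (female) from day 14 after stroke. The labels number aged replicates within each sex, so aged libraries are named here by sex, and their values are listed with the male library first. Sham surgery was sampled at day 2 alone, so the day 14 libraries were compared with day 2 sham. The labels do not say whether libraries of a group came from separate batches of mice, so p-values measure the spread between these libraries, which may be partly technical.

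Mural cells wrap the endothelium of brain vessels. Smooth muscle cells surround arteries and arterioles and contract through smooth muscle actin and myosin. Pericytes sit on capillaries within the basement membrane, depend on platelet-derived growth factor from the endothelium through the receptor Pdgfrb, and help to maintain the blood-brain barrier. After ischaemia they are studied for constriction of capillaries, detachment, death and scar formation.

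The markers of both kinds were far higher in the cells coded MC than in endothelial cells or microglia, 2 of the 13 coded types. Rgs5, a regulator of G protein signalling and the usual pericyte marker, had 7233 CPM in the summed mural cells and 189 CPM in endothelial cells. Acta2, smooth muscle actin, had 6928 CPM in mural cells and 13.2 CPM in endothelial cells. Vtn, the matrix protein vitronectin, had 3609 CPM against 7.49 CPM, and Myh11, smooth muscle myosin heavy chain, 2200 CPM against 1.93 CPM. The deposited types were made from these same cells, so the levels describe the code and do not test it. All 32 genes of the pericyte and smooth muscle lists, 16 in each, had at least 1 count in mural cells. Microglia, which should lack Acta2, held 3.58 CPM of it; the source of these counts was not tested.

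**Figure D1:**
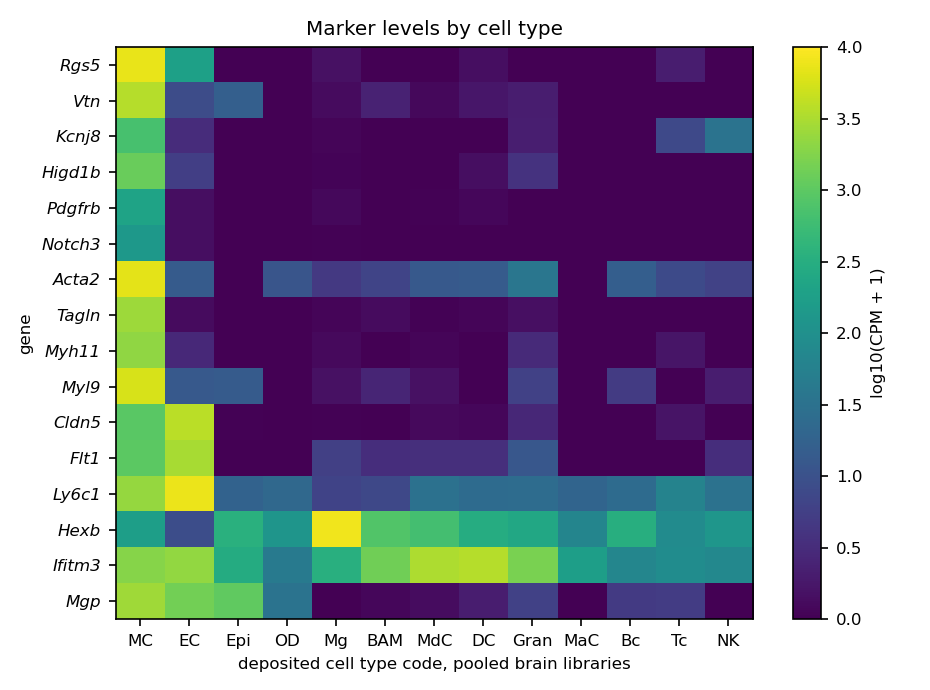
Level of each gene (log10 of CPM + 1, colour) in the summed cells of each deposited code over the 18 brain libraries; MC are mural and EC endothelial cells, and the other codes are as deposited. The pericyte and smooth muscle markers are bright in the MC column, while Ly6c1, Flt1 and Cldn5 are highest in EC and also visible in MC.

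The pericyte list held, after Rgs5 and Vtn, Higd1b at 1224 CPM, the potassium channel subunit Kcnj8 at 677 CPM, Pdgfrb at 205 CPM and the receptor Notch3 at 137 CPM. The smooth muscle list held Myl9 (myosin light chain) at 5795 CPM, Tagln (transgelin, an actin-binding protein) at 2591 CPM, and the list summed to 35789 CPM against 16279 CPM for the pericyte list. These levels are not per gene length and rest on few molecules, since the median mural cell had 383 counts and 347.5 detected genes.

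Serum response factor drives contractile genes through CArG boxes, short A/T-rich elements. RefSeq sequences of 250 bases before a transcription start (GRCm38.p6) were matched for 13 of the 16 smooth muscle genes and 12 of the 16 pericyte genes. A box was searched as CC, then 6 bases of which at most 1 was not A or T, then GG; the form is its own reverse complement, so both strands were covered. It was found at 3 of the 13 smooth muscle promoters (Acta2, Crip1 and Myl9) and at 0 of the 17 pericyte promoters, while 8.59% of all 32851 promoters of the table held one. A box with A or T at all 6 inner bases was found at Myl9 alone among both lists, and at 1.47% of all promoters. These are counts of letters, with no test. Shown are the boxes of Acta2, which defines the smooth muscle side of the results below, the part of the Myl9 window before the annotated gene, and the window of the pericyte marker Rgs5, with boxes in capitals; the last holds none.
Acta2 box 1, chr19:34255438-34255467, minus strand, 84 bases before the start: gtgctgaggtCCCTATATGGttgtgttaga
Acta2 box 2, chr19:34255388-34255417, minus strand, 34 bases before the start: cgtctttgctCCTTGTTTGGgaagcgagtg
Myl9, chr2:156775214-156775407, plus strand: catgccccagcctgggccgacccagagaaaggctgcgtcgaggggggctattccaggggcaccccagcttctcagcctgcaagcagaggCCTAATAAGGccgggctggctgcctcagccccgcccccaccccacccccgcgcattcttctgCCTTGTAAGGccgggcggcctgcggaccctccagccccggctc
Rgs5, chr1:169655251-169655500, plus strand: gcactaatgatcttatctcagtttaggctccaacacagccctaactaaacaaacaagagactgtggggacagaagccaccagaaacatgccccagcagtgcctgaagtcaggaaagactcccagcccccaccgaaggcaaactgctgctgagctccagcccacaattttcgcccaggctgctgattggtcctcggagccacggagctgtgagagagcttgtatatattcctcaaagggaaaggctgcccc
Both Acta2 boxes lie upstream of the RefSeq start used in the table, but within the first exon of the GENCODE vM21 transcript, which starts further upstream. The printed Myl9 and Rgs5 stretches overlap no GENCODE exon of their gene.

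The authors divided mural cells into MC1 (140 cells) and MC2 (88 cells). The contractile genes were high in MC1 and the pericyte genes, by and large, in MC2. Because clusters are built from these same genes, the values are a description with no test. The smooth muscle list summed to 56232 CPM in MC1 and 6763 CPM in MC2, and the pericyte list to 11066 CPM in MC1 and 23681 CPM in MC2. Acta2 had 11359 CPM in MC1 and 638 CPM in MC2, and Tagln 4280 and 193 CPM. Lmod1, leiomodin, an actin nucleator of smooth muscle, had 1464 CPM in MC1 and 39.3 CPM in MC2. These contractile genes differed in the same direction in all 6 libraries with at least 5 cells of each subtype.

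Among pericyte genes, Vtn had 6432 CPM in MC2 and 1621 CPM in MC1, and Kcnj8 had 1136 and 354 CPM. Rgs5 was less divided, at 10037 CPM in MC2 and 5258 CPM in MC1, and Higd1b had 1443 and 1070 CPM. Rgs4, of the same family as Rgs5, went the other way, at 645 CPM in MC2 and 1084 CPM in MC1. The direction held in 6 of 6 libraries for Vtn and Rgs5, in 5 for Kcnj8 and in 4 each for Higd1b and Rgs4. Of 15 pericyte genes with at least 10 counts, 8 were higher in MC2 by their counting interval, 1 was higher in MC1 and 6 had an interval that included equal levels, against 13, all higher in MC1, of 14 smooth muscle genes. Of all 2627 genes with at least 10 counts, 8.98% were higher in MC1 and 9.71% higher in MC2 by the same interval; the subtypes were clustered on such genes, so nothing is read from these counts. The share of cells with a count of Rgs5 was 87.5% in MC2 and 63.6% in MC1, at median depths of 378 and 388 counts, against 5.78% of endothelial cells (median 468 counts) and 0.0445% of microglia (537 counts). Acta2 was found in 82.9% of MC1 cells and 9.09% of MC2 cells, against 0.577% of endothelial cells and 0.344% of microglia.

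Endothelial markers moved with MC2. The 12 endothelial genes summed to 22181 CPM in MC2 and 2578 CPM in MC1, against 37604 CPM in endothelial cells themselves. Cldn5, the tight junction protein of brain endothelium, had 2074 CPM in MC2 and 124 CPM in MC1. Cells with at least 5 counts and at least 2% of their counts from this list numbered 35 of 88 in MC2 and 2 of 140 in MC1. Without them, Vtn in MC2 was 7394 CPM, Rgs5 13283 CPM, Kcnj8 1655 CPM and Cldn5 565 CPM. These pericyte genes were thus no lower in the MC2 cells that lacked this endothelial signal. Whether these cells are captured pairs of cells was not tested.

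Other lists of cell types left some counts. The monocyte and macrophage list reached 0.561% of its level in the type coded MdC, with Plac8, Ms4a7 and Arg1 at 0 in mural cells. The neutrophil list summed to 56.8 CPM, against 36.1 CPM in endothelial cells, with S100a8, S100a9, Ly6g, Retnlg, Csf3r and Cxcr2 at 0. The fibroblast list summed to 211 CPM, against 23.5 CPM in endothelial cells, with Col1a1, Lum and Pdgfra at 0; it stood at 71.4 CPM in sham and 306 CPM in stroke mural cells. The astrocyte list summed to 1561 CPM in mural cells and 177 CPM in endothelial cells; Aqp4, Gfap, Slc1a2 and Aldoc were at 0, and most counts were of Mfge8, which the basement membrane list also holds. The part of either list in the results was not tested. Microglial genes were at 5521 CPM in the first young sham library, which held both mural cells with a myeloid signal (at least 5 counts and 2% of counts), and at 0 to 45.3 CPM in the other 17 libraries. Without those 2 cells that library had 1715 CPM of microglial genes, and its smooth muscle share of marker counts, described below, was 89.1% with or without them.

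Single mural cells were also placed by their own markers. In 212 cells with at least 5 counts of the 2 lists, 127 drew at least 50% of these counts from smooth muscle genes and 85 fewer. The cells clustered at the ends: 77 cells had a share of at least 90% and 44 a share under 10%, and 9 lay between 40% and 60%. The smooth muscle range held 116 MC1 and 11 MC2 cells, and the pericyte range 22 MC1 and 63 MC2 cells, so that the marker range and the deposited subtype differed for 33 cells. The ranges are stretches of a scale, not cell types.

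**Figure D2:**
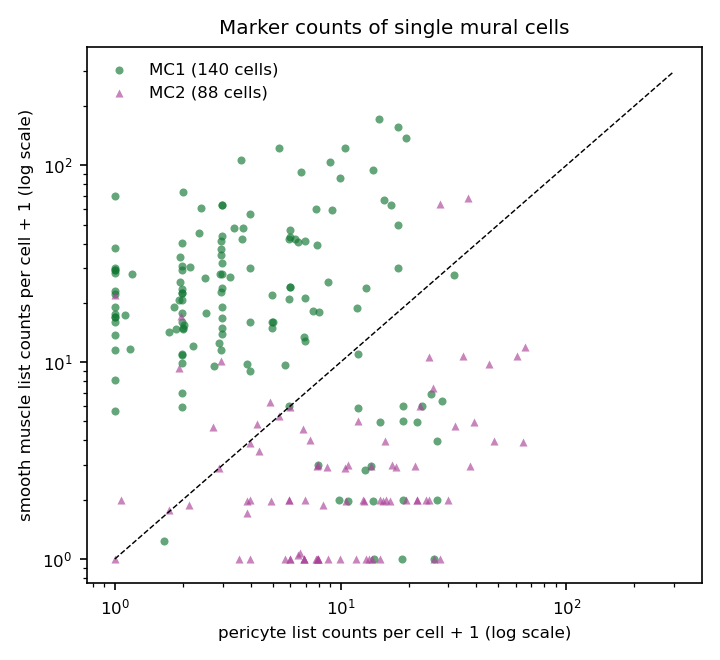
Each point is 1 of the 228 mural cells, placed by its summed counts of the 16 pericyte genes (x axis) and the 16 smooth muscle genes (y axis), each plus 1, on log scales; the dashed line marks equal counts. Most MC1 cells lie above the line and most MC2 cells below it, with 22 MC1 cells in the pericyte range.

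Given next are the 10 genes outside both lists with the largest ratio on each side. They were picked for this difference, with a minimum of counts in the higher range alone, so their direction is no result. In the smooth muscle range, Palld, palladin, which cross-links actin, had 944 CPM, and Nexn, an actin-binding protein of contractile cells, 664 CPM. Both had 0 counts in the pericyte range, so they were at least 13.9-fold and at least 9.80-fold higher against a floor of 3 counts over the range. Csrp1 had 747 CPM against 0 counts, at least 11-fold higher. Atp1b1, a subunit of the sodium pump, had 1035 CPM against 0 counts, at least 15.3-fold. Flna, filamin A, had 556 against 39.1 CPM, Fxyd1 1138 against 137 CPM, and the stress-induced factor Atf3 550 against 64.0 CPM. Rasd1 (898 against 66.4 CPM), Errfi1 (676 against 36.5 CPM) and Rasl11a (577 against 34.9 CPM) were the others of the 10 genes.

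In the pericyte range, Ptn, the growth factor pleiotrophin, stood highest, at 7652 CPM against 211 CPM in the smooth muscle range. Cxcl12, a chemokine, had 1259 against 13.5 CPM, and was at 0 counts in the 140 MC1 cells. Car4, a membrane-bound carbonic anhydrase, had 1633 against 84.1 CPM, and Ctla2a 787 against 13.5 CPM. Ecm2 had 1001 against 108 CPM, and Sod3, extracellular superoxide dismutase, 1042 against 177 CPM. Slco1a4 (1347 against 189 CPM) and Pltp (1102 against 202 CPM) belong to the endothelial list. Ifitm1 (794 against 139 CPM) and Spock2 (1167 against 229.5 CPM) were the others of the 10 genes. In endothelial cells Ctla2a had 3033 CPM, Spock2 1928 CPM, Cxcl12 1907 CPM and Car4 793 CPM. In MC2 cells without the endothelial signal Ptn was 8002 CPM, Cxcl12 1195 CPM, Car4 1085 CPM and Ctla2a 466 CPM. As given above, these cells still held Cldn5, so the cutoff did not remove all counts of endothelial genes. The source of the counts was not tested. The direction held in both libraries with at least 10 cells in each range, as the choice of these genes required.

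Of the contractile regulators, 14 of 20 genes had at least 10 counts; 8 were higher in MC1 with a counting interval above 1, 0 were lower and 6 had an interval that included 1, beside the 8.98% and 9.71% of all genes given above. Of 12 ion channel and vasoreactivity genes 3 were higher in MC1, 2 higher in MC2 and 7 had such an interval, and the counts were the same for 12 genes of platelet-derived growth factor and Notch signalling. Examples picked for their difference follow. Ppp1r12a, the targeting subunit of myosin phosphatase, had 1749 CPM in MC1 and 294 CPM in MC2, and Cald1, caldesmon, 8021 and 3283 CPM. Pdgfa, a ligand of the platelet-derived growth factor family, had 458 CPM in MC1 and 33.5 CPM in MC2. Hes1, a target of Notch signalling, had 950 and 379 CPM, and Id3, a target of bone morphogenetic protein signalling, 2390 and 857 CPM. Atp2a2, the calcium pump of the sarcoplasmic reticulum, had 539 and 180 CPM. These 6 genes were higher in MC1 in 6 of 6 libraries with at least 5 cells of each subtype.

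On the MC2 side, Abcc9, the sulphonylurea receptor that pairs with Kcnj8 in a potassium channel, had 481 CPM against 93.2 CPM, though the direction held in 3 of 6 libraries. Among basement membrane genes Sparc (1751 CPM in MC1, 2043 CPM in MC2) was close to even. Soluble guanylate cyclase, the sensor of nitric oxide, was found in both subtypes: Gucy1b1 had 669 CPM in MC1 and 589 CPM in MC2. Mgp, matrix Gla protein, an inhibitor of calcification, had 2678 and 2793 CPM over sham and stroke cells together, but this direction held in 1 of 6 libraries, and within each condition, given below, its level was higher in MC1.

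The share of mural cells was compared between stroke and sham first. Mural cells were not a sorted target, so both shares below depend on how many passed the gates and do not measure their number in the tissue. In young mice the mural share of all cells was 0.924%, 0.615%, 0.131% and 0.237% in the 4 sham libraries. It was 0.0282%, 0.180%, 0.579% and 0.178% at day 2 after stroke, and 0.469%, 0.151%, 0.150% and 0.0976% at day 14. The 3 groups overlapped, and each held 1 or 2 libraries well above its others. The means were 0.477 ± 0.363% after sham surgery, 0.241 ± 0.236% at day 2 and 0.217 ± 0.17% at day 14 (SD, n = 4 each).

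By edgeR's quasi-likelihood test on the counts of the cell types, the mural share differed from sham by -0.99 ± 0.72 (log2, SE; adjusted p = 0.370) at day 2 and by -1.15 ± 0.74 (adjusted p = 0.226) at day 14. Exact two-sided permutation tests of the shares gave p = 0.286 and p = 0.229, where the smallest p that 4 against 4 libraries allow is 0.0286. Without the first day 14 library, the 1 with the most mural cells of its group, the day 14 difference was -1.86 with an adjusted p of 0.0405 in edgeR's test. The lower share in stroke was thus not separable from the spread in the full set of libraries.

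In aged mice the share was 0.350% and 1.40% after sham surgery, 0.610%, 0.710% and 0.340% at day 2 after stroke and 0.569% in the day 14 library. The 2 aged sham libraries lay near the bottom and at the top of the aged values. Over all ages the share was 0.610 ± 0.482% (SD, n = 6) after sham surgery and 0.339 ± 0.237% (SD, n = 12) after stroke, with p = 0.120 in the exact permutation test.

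The share of all cells also counts the sorted leukocytes. Among mural plus endothelial cells, which both lack CD45, mural cells made up 5.54%, 4.49%, 1.23% and 2.96% in the young sham libraries. They made up 0.277%, 1.29%, 3.83% and 0.679% at day 2 after stroke, and 2.03%, 1.24%, 1.32% and 1.55% at day 14. Day 14 had the narrowest spread (1.54 ± 0.359%, SD, n = 4), below 3 of the 4 sham libraries, but the ranges overlapped. The exact permutation test gave p = 0.171 for day 2 and p = 0.143 for day 14 against sham (both 0.610 after Benjamini-Hochberg adjustment over 16 comparisons of shares). Without the third sham library the day 14 difference was -2.79 percentage points with an exact permutation p of 0.0286, before any adjustment. In aged mice this share ran from 0.679% to 15.3% in the 2 sham libraries and from 2.11% to 7.59% at day 2 after stroke, and was 7.85% at day 14.

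**Figure D3:**
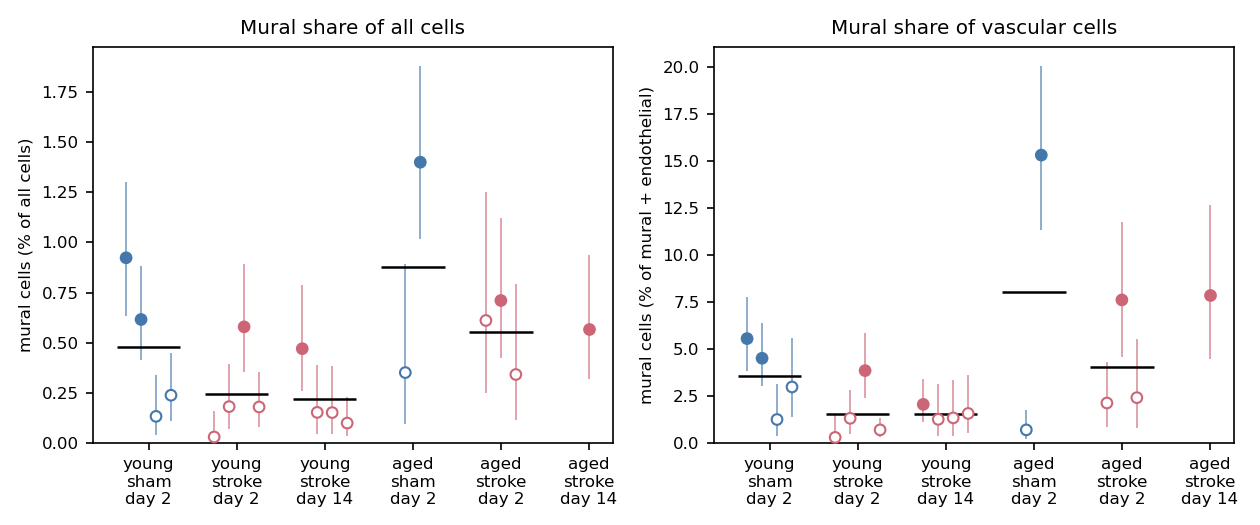
Mural cells as a percent of all cells (left) and of mural plus endothelial cells (right), 1 point per library with its exact 95% binomial interval, which covers counting error alone; filled points are libraries with at least 10 mural cells, bars are group means, blue is sham and red stroke. The groups overlap in both panels, and an aged sham library is highest in each.

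The balance of the subtypes was as variable. MC2 cells made up 34.9 ± 13.8% of mural cells in young sham libraries, 57.1 ± 29.5% at day 2 and 50.2 ± 25.8% at day 14 after stroke (SD, n = 4 each). The exact permutation test gave p = 0.200 and p = 0.429 against sham. Without single libraries the difference from sham ran from 7.88 to 30.1 percentage points at day 2 and from 3.44 to 23.7 at day 14. In aged libraries MC2 made up 50% and 23.3% after sham surgery, 28.6%, 27.8% and 0% at day 2 after stroke and 33.3% at day 14. The 0% is 0 of 5 cells, and several libraries held 4 or fewer mural cells, so that single cells set these shares.

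A measure taken from the RNA is the smooth muscle share of the marker counts, that is, the counts of the smooth muscle list over those of both lists. It was 89.1%, 72.4% and 70.7% in the 3 sham libraries with at least 10 mural cells (young, young and aged). It was 60.9% (young, day 2), 40.6% (young, day 14), 56.2% (aged, day 2) and 61.1% (aged, day 14) in the 4 such stroke libraries. All 4 stroke values lay below all 3 sham values, 54.7% against 77.4% on average. As a mean over single cells, which weights cells equally, the share was 47.1% against 61.4% in the same libraries, the groups overlapped and the exact permutation p was 0.343. For the share of summed counts the exact permutation test gave p = 0.0286, the smallest this design allows, and 0.0857 after adjustment over 3 comparisons of this measure. That p counts splits by the absolute difference; with the smaller tail doubled instead, a definition tried after the data were seen, it was 0.0571. Pooling young and aged libraries for it was decided after the values were seen, and leaving out any 1 of the 7 libraries gave -26.1 to -16.8 percentage points. Fewer smooth muscle cells, less contractile RNA per cell, more pericytes and more pericyte RNA per cell cannot be told apart in this share. Within MC1 cells Acta2 was 13803 CPM after sham surgery and 8957 CPM after stroke, but 10569 CPM after sham surgery without the first young sham library, which had 20999 CPM. Of the stroke libraries, young day 14 replicate 3 stood highest, at 23554 CPM in 2 MC1 cells, and was kept in the stroke value. Most other genes of the list were also lower after stroke in MC1 cells, such as Tagln (6765 CPM after sham surgery, 1838 CPM after stroke). Mylk was close to even (2499 and 2454 CPM), and Tpm1 (5016 and 5698 CPM) and Sncg (1775 and 2047 CPM) were higher.

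Over all 18 libraries the smooth muscle share overlapped, at 71.5 ± 16.8% (SD, n = 6) after sham surgery and 61.4 ± 23.9% (SD, n = 12) after stroke, with p = 0.370 in the exact permutation test. Of the smaller libraries, young sham replicates 3 and 4 had 71.9% and 84.1%, and the male aged sham library 40.7%. Young stroke libraries of few cells ran from 13.4%, in the library with a single mural cell, to 94.4%. The separation was therefore seen in the libraries with more mural cells and not in the whole set.

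Depth and mitochondrial share differed too. The median mural cell had 330 counts, 7.57% of them mitochondrial, after sham surgery and 448 counts and 5.14% after stroke. The median cell had 255, 358 and 335 counts in the 3 sham libraries and 552, 921, 379 and 315 counts in the 4 stroke libraries, in the order given above. The library with the lowest share, young day 14, had the highest depth and 1.15% mitochondrial counts, and that with the highest share the lowest depth and 1.35%; the part of either measure in the share was not tested. The first young sham library also stood apart in its values, of which 39.5% were under 0.5 of a count, against 0.512% to 4.21% in the other 6 libraries. With values of at least 0.5 alone its share was 90.7%, and the means were 54.7% after stroke and 77.9% after sham surgery, again without overlap (exact permutation p = 0.0286).

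Endothelial markers moved with it: their summed level was 4933 CPM in sham and 14613 CPM in stroke mural cells, and 11 of 121 sham and 26 of 107 stroke mural cells held the endothelial signal described above. Without those cells the smooth muscle share in the 7 libraries was 65.2% after stroke and 80.3% after sham surgery. The groups still did not overlap, but the closest values were 70.3% (aged day 14 after stroke) and 71.8% (female aged sham). The young day 14 library lost 9 of its 14 mural cells, which left it under the minimum of 10, and its share went from 40.6% to 69.3%. Young libraries alone leave 2 sham and 1 stroke library per day with at least 10 cells, where the smallest exact p is 0.333.

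**Figure D4:**
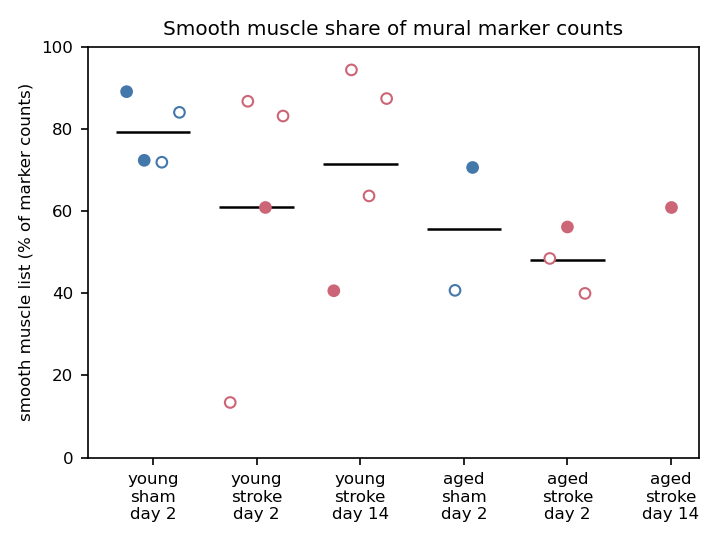
Smooth muscle list counts as a percent of smooth muscle plus pericyte list counts, 1 point per library; filled points are libraries with at least 10 mural cells, bars are group means, blue is sham and red stroke. The filled red points (40.6% to 61.1%) lie below the filled blue points (70.7% to 89.1%), while open points of both colours span the range.

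Expression was tested on counts summed over the mural cells of a library, over all genes that passed the filter on low counts. No gene passed an adjusted p of 0.05 by edgeR's quasi-likelihood test in the libraries with at least 10 mural cells. Stroke against sham over 7 libraries of both ages, with age as a covariate, called 0 of 180 genes (0%). The young libraries among these 7 were all male and the aged ones all female, so age and sex cannot be told apart in this fit. Each young comparison (day 2 against sham, day 14 against sham, day 14 against day 2) called 0 of 331 genes (0%), from 4 libraries with 1 residual degree of freedom. These young fits hold 2 sham libraries and a single library at each day after stroke, which is assumed to vary like the sham pair, so 0 calls say little about the conditions. Unadjusted p under 0.05 was reached by 12, 4, 4 and 4 genes, and DESeq2 called 0, 0, 1 and 1 gene. Both calls were mt-Rnr2, a mitochondrial ribosomal RNA, lower at day 14. Mitochondrial ribosomal RNA made up 0.0229% of mural counts in the day 14 library of this fit, 5.63% in the day 2 library, 9.39% in the second sham library and nothing in the first.

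In a single run of counts simulated for the 7 libraries, 41 of 43 genes changed 16-fold and 7 of 12 changed 4-fold were called, beside 3 unchanged genes. A single run for all 18 libraries gave 12 of 12 genes called at 16-fold and 0 of 2 at 4-fold, with 0 unchanged genes called. Only changed genes that passed the filter on low counts after the change are counted, and a raised level helps a gene to pass. Changed genes lost to the filter are left out, and all genes were given a common dispersion. Smaller changes were not simulated.

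The fitted values of the marker lists come from the same counts as the shares and are no further evidence of them. Of the smooth muscle list, 10 genes were tested over both ages, 0 were called, and all 10 had log2 fold changes below 0, with a median of -1.06 beside 0.01 over all 180 genes. With every library 5 of 6 tested lay below 0 (median -0.53, beside -0.11 over 33 genes). Myh11 had -1.37 ± 0.57, Myl9 -1.28 ± 0.54, Acta2 -1.26 ± 0.60 and Tagln -2.29 ± 1.11 (log2, SE; adjusted p 0.655 each). With every library Myh11 was -0.28, Myl9 -0.57, Acta2 -0.74 and Tpm1 0.16, and Tagln was not tested. Of the 5 pericyte genes tested 0 were called, with a median of 0.28: Rgs5 had 0.28 ± 0.52 (adjusted p = 0.972) and Vtn 1.63 ± 0.59 (adjusted p = 0.609). The 6 endothelial genes tested had a median of 1.81, 0 of them called. In the young libraries of at least 10 cells, 12 of 13 smooth muscle genes tested lay below 0 at day 2 against sham (median -1.17, beside -0.15 over all 331 genes) and 13 of 13 at day 14 (median -1.65, beside -0.09), 0 of them called; both comparisons share the sham libraries. Each rests on 1 stroke library, and in that of day 14, 12 of 14 mural cells were MC2. With every young library 8 of 8 smooth muscle genes tested lay below 0 at day 2 (median -1.24, beside -0.59 over all 49 genes), but 5 of 8 at day 14 (median -0.05, beside -0.12), where Myh11 was 0.48 and Tpm1 0.66.

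The 5 genes of smallest p in this comparison were likewise not called. Aspn, asporin, a small matrix proteoglycan, had -3.41 ± 0.96, Ifitm3 2.25 ± 0.64, Fxyd1, a regulator of the sodium pump, -2.01 ± 0.61, and B2m, the light chain of class I major histocompatibility molecules, 1.17 ± 0.37 (log2, SE; adjusted p 0.602 each). Ly6a, a surface protein of endothelium among other cells, had 2.15 ± 0.75 (adjusted p = 0.609). Aspn was 1109, 877 and 1277 CPM in the 3 sham libraries and 0, 0, 418 and 172 CPM in the 4 stroke libraries. B2m was 1030, 835 and 936 CPM in sham and 1420, 2567, 2271 and 1824 CPM in stroke libraries. The groups did not overlap for either gene, nor for 17 others, 19 of the 180 genes tested in all (10.6%).

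In the young comparisons the genes of smallest p were also not called, and with 1 stroke library per day their fitted values are given as a description of these libraries. They were Ifitm3 (2.81), Aspn (-6.75), Pabpc1 (-2.97), Actn4 (-6.39) and Ptms (-2.75) at day 2 against sham (log2). At day 14 against sham they were Lmod1 (-7.36), Tagln (-9.44), Aspn, the calcium pump regulator Pln and B2m. Fitted values this large come from counts at or near 0 in a single library and are no bound. Lmod1, Tagln and Pln also led day 14 against day 2, a comparison of 1 library with 1, with Actn4 and Tpt1. Tagln had 0 counts in the first day 14 library and 10402 and 2638 CPM in the first and the second young sham library.

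Rgs5 and Acta2 show the spread behind these fits. Rgs5 was 2967, 7343, 12590 and 4275 CPM in the young sham libraries, 21466, 1723, 6428 and 3532 CPM at day 2 after stroke and 8988, 2985, 9011 and 5247 CPM at day 14. In aged libraries Rgs5 was 9955 and 9782 CPM after sham surgery, 10598, 7809 and 15374 CPM at day 2 after stroke and 7708 CPM at day 14. The young groups overlapped, as did aged sham and aged day 2 stroke, while the single aged day 14 library had the lowest aged value. The highest value of all came from the single cell of the first young day 2 library.

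Acta2 was 16586, 7291, 6258 and 5596 CPM in the young sham libraries, 0, 5833, 5387 and 3660 CPM at day 2 and 2506, 4192, 10830 and 6201 CPM at day 14. In aged libraries Acta2 was 4809 and 8073 CPM after sham surgery, 2817, 5445 and 3389 CPM at day 2 after stroke and 4124 CPM at day 14. The first young sham library stood apart at the top, and the first young day 2 library had 0 counts in its single mural cell.

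With every library that held a mural cell, 18 in all, 33 genes passed the filter and 2 were called in stroke against sham with age as a covariate (6.06%). Both rose: Ifitm3, an antiviral membrane protein induced by interferon, by 2.34 ± 0.66 and Mgp by 2.37 ± 0.70 (log2, SE; adjusted p = 0.0438 each in edgeR's test). With the minimum of 10 cells per library neither gene was called. A raised level after stroke helps a gene to pass the filter, so the direction of the 2 calls is not independent of it.

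Ifitm3 was 142, 868, 0 and 339 CPM in the young sham libraries, 3180, 1733, 3674 and 4730 CPM at day 2 after stroke and 1955, 0, 1770 and 0 CPM at day 14. In aged libraries Ifitm3 was 1594 and 636 CPM after sham surgery, 4701, 3435 and 2748 CPM at day 2 after stroke and 857 CPM at day 14. All 7 day 2 stroke libraries lay above every sham library, which held for 1 of the 33 genes tested (3.03%). The gene was chosen on these libraries and entered the 33 mainly through its high levels in them, so this is a description. The first young day 2 library, 1 cell of 586 counts, held fewer than 3 counts of Ifitm3. In young sham replicate 3, at 0 CPM with 1393 counts in all, 3 counts would exceed the lowest day 2 stroke value. The separation thus rests in part on levels under the floor of 3 counts. The day 14 libraries overlapped with sham. The values of Ifitm3 and Mgp in the first young sham library (142 and 11.2 CPM) were made of values under 0.5 of a count, without which both are 0. The 2 day 14 libraries at 0 held 4 and 5 mural cells, where 3 counts would be 1825 and 2684 CPM, so levels as in the other 2 libraries were close to or under what 3 counts allow.

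Mgp was 11.2, 875, 0 and 330 CPM in the young sham libraries, 0, 3162, 6098 and 8300 CPM at day 2 after stroke and 1629, 603, 2397 and 2968 CPM at day 14. In aged libraries Mgp was 2386 and 1384 CPM after sham surgery, 3090, 4084 and 3464 CPM at day 2 after stroke and 2749 CPM at day 14. The day 2 stroke libraries overlapped with sham through the library with a single mural cell, at 0 CPM. Each of the others lay above each sham library of its age. The gene was chosen on these libraries, and how many tested genes meet this looser rule was not counted. Summed over cells, Mgp was 388 CPM in young and 1488 CPM in aged sham mural cells.

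**Figure D5:**
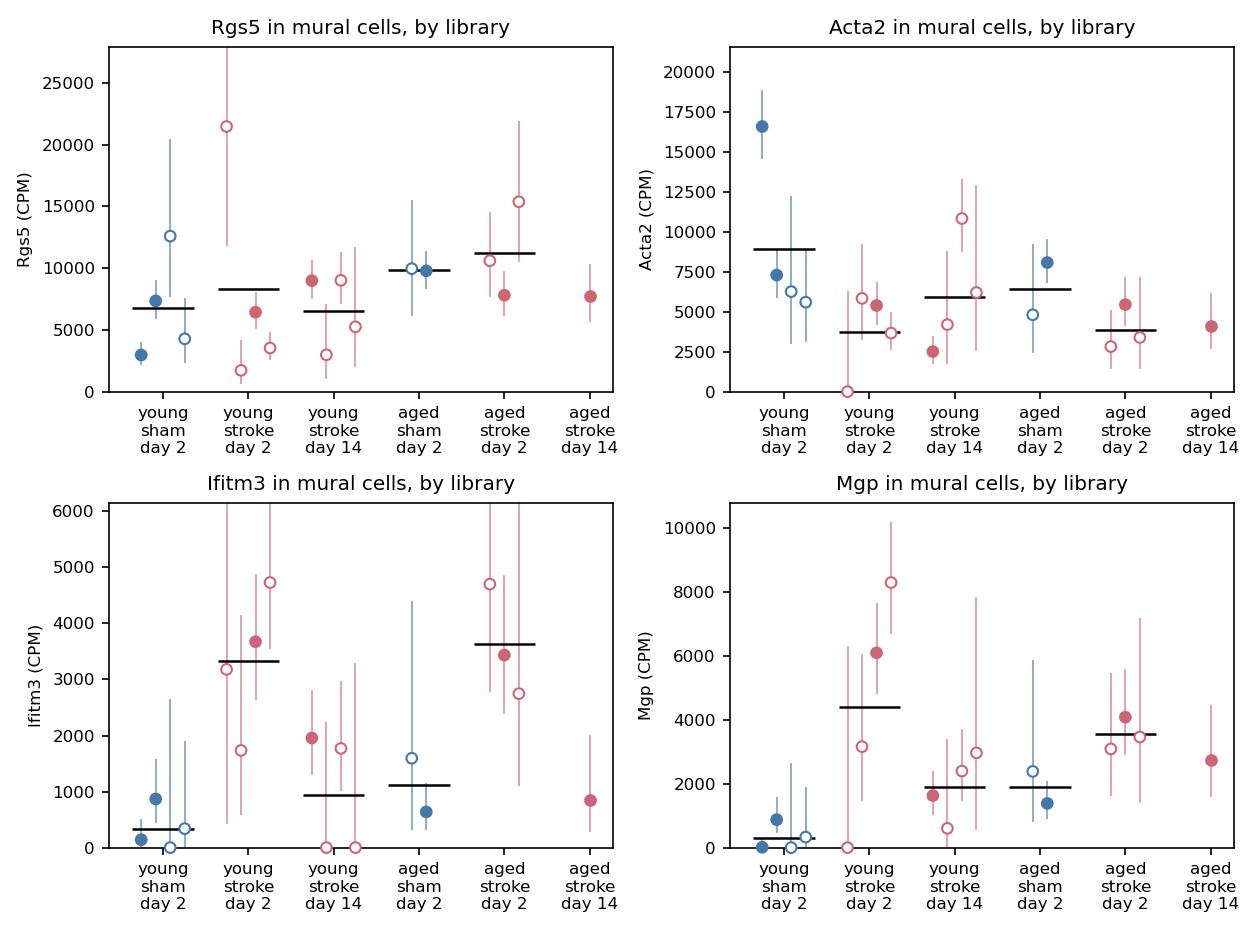
CPM of Rgs5, Acta2, Ifitm3 and Mgp in the summed mural cells of each library, with exact 95% Poisson intervals of the counts (counting error alone; some run past the top); filled points are libraries with at least 10 mural cells, bars are group means, blue is sham and red stroke. Ifitm3 and Mgp are higher in most day 2 stroke libraries than in sham libraries, while Rgs5 and Acta2 overlap.

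Summed over cells, both genes had higher levels after stroke on each side of the division into subtypes. The fits of every library over both ages called 0 of 22 genes in MC1 cells (smallest adjusted p = 0.103 in edgeR's test) and 0 of 13 in MC2 cells (0.514). Unadjusted p was under 0.05 for 1 and 0 genes. Ifitm3 was 481 CPM in sham and 2292 CPM in stroke MC1 cells, and 749 and 3373 CPM in MC2 cells. Mgp was 888 and 4438 CPM in MC1 and 615 and 3639 CPM in MC2. In cells without the endothelial signal Ifitm3 was 512 CPM after sham surgery and 2584 CPM after stroke, and Mgp 817 and 4272 CPM. The summed levels differed as much without those cells. In the fit of all libraries without cells holding endothelial or myeloid markers, 20 genes passed the filter and neither of these was among them.

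Ifitm3 was also higher after stroke in other cells of the same libraries: 1264 against 2516 CPM in endothelial cells and 21.3 against 500 CPM in microglia. Mgp was 1205 and 1458 CPM in endothelial cells and close to 0 in microglia (0.0781 CPM in sham). Whether free RNA of other cells contributed to the mural counts of either gene was not tested.

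Both calls were lost when single libraries were left out. Leaving out each of the 18 libraries in turn, Ifitm3 was called in 5 of the 15 fits that tested it, with log2 fold changes of 1.96 to 2.77 and an adjusted p of up to 0.196. The gene did not pass the filter in the other fits, each of which left out a day 2 stroke library. The call remained without the male aged sham library, the aged day 14 library, young day 14 replicate 2 or 4, or young day 2 replicate 1. Mgp was called in 4 of 18 such fits, the same ones but for young day 14 replicate 4, with an adjusted p of up to 0.196. In the young libraries alone edgeR's test with TMM called neither gene: at day 2 against sham Mgp had 3.40 ± 1.01 and Ifitm3 2.66 ± 0.85 (log2, SE; adjusted p 0.145 each), and at day 14 against sham 2.35 ± 1.04 and 1.49 ± 0.86 (adjusted p 0.997 each), with 0 of 49 genes called (0%). At day 2 against sham DESeq2 called both (adjusted p = 0.0137 each), as did edgeR's test without TMM (0.0350 for Ifitm3 and 0.0239 for Mgp). Without the first day 2 library edgeR's test called Mgp and Id3 (adjusted p 0.0349 each) and not Ifitm3 (0.0660). In MC1 cells of every young library edgeR's test called Id3 alone, 1 of 29 genes. Its log2 fold change was 3.26 at day 2 against sham (adjusted p = 0.0253) and -3.51 at day 14 against day 2 (0.0259).

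For the aged mice alone, 1 library per group had at least 10 mural cells, which leaves no residual degree of freedom and so values without a test. A fit of every day 2 library of both ages (13 libraries, a choice made after the data were seen) called 0 of 51 genes (0%) between aged stroke and aged sham by edgeR's test, with 0 at an unadjusted p under 0.05, and DESeq2 called 0, with 2 at an unadjusted p under 0.05. Ifitm3 had 1.97 ± 0.95 and Mgp 0.94 ± 1.07 (log2, SE; adjusted p 0.992 each in edgeR's test). The female aged sham library (43 cells) and the first female aged stroke library at day 2 (18 cells) had Acta2 at 8073 and 5445 CPM, Rgs5 at 9782 and 7809 CPM, Vtn at 2836 and 4913 CPM, Ifitm3 at 636 and 3435 CPM and Mgp at 1384 and 4084 CPM.

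Of the signalling and response lists, few genes were abundant enough to test over both ages. The interferon list had 1 of 20 genes tested (Ifitm3), the basement membrane list 4 (median -0.09), the contractile regulators 3 (median -0.16) and the early response list 3 (median -0.17), with 0 called among the libraries of at least 10 cells. In the summed cells the interferon list stood at 1476 CPM after sham surgery and 5751 CPM after stroke, and without Ifitm3 at 919 and 2917 CPM. The list of transforming growth factor, angiopoietin and sphingosine signalling stood at 2121 and 4143 CPM, of which Id3 alone had 959 and 2303 CPM. The transporter list was even, at 3626 and 3604 CPM. The proliferation list, at 1110 and 972 CPM, was no higher after stroke, but 4 of its 20 genes had at least 10 counts, so its sum says little about cell division. These sums weight libraries by their depth and carry no test.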

How the data were processed

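Drop-seq tables of 18 brain libraries were used, 1 per library, with the authors' deposited expected counts per gene and cell; these are estimated counts, not whole, and how they became so is not given in the sources used here. The build mm10 and the tool Seurat are named per the submitters' processing notes, without a role; aligner and cell filters are not given in the sources used here. The deposited metadata hold the counts per cell, detected genes, the percent of mitochondrial counts and the cell type codes. Every deposited cell coded MC was kept, and no doublet caller was run. The members and gene lists were chosen with earlier results of these data known.

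Expected counts were summed over mural cells per library (586 to 17204 per library), rounded and tested with edgeR 4.0.16 in R 4.3.3 (TMM, filter on low counts, quasi-likelihood test, Benjamini-Hochberg adjustment, threshold 0.05) in libraries with at least 10 mural cells. DESeq2 1.42.0 was an alternative. The procedure was tested on simulated data. CPM are summed counts scaled to the total of the same cells. Intervals are exact (Poisson or Clopper-Pearson, 95%) and cover counting error; the floor is 3 counts. Shares were compared by exact two-sided permutation tests with Python 3.11.15. Ranges used cells with at least 5 marker counts and a boundary of 50%. Genes named in an expression comparison are the called ones with the largest changes (mean of 20 CPM or more) and, where fewer than 5 were called, the 5 of smallest p; predicted, mitochondrial, ribosomal, haemoglobin and sex-linked genes were left out, as were genes over 10-fold higher in another common brain type (500 cells or more). Range genes are among the 10 of largest ratio on each side with 30 counts or more in the higher range. List members and genes shown by subtype were named after their values were seen. No mural cell shared its barcode with another mural cell, and 1 did with another cell of another brain library.

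Genes absent from the tables were not analysed here. Blood libraries were not used here.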

Additional observations from a re-analysis of the deposited data

Results flagged for a closer look

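Among 33 groups of 4 libraries and measures examined, 2 held a library far from the others by Dixon's criterion, about as many as chance gives (1 in 20). The first library of young stroke mice at day 14 had a mural share of 0.469% of all cells, against 0.151% in the next. The first library of young sham mice had Acta2 at 16586 CPM, against 7291 CPM in the next.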

How the results depend on the processing

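Counts of called genes moved with the libraries and tool used, and the cause was not tested. Stroke against sham over both ages called 0 genes with the minimum of 10 mural cells per library and 2 with every library, also with DESeq2, without TMM, with sex as a covariate or with day 2 libraries alone; leaving out single libraries gave 0 to 2. With every library, young day 2 against sham called 3 genes by DESeq2 (Ifitm3, Mgp and Igfbp7), 2 without TMM (Ifitm3 and Mgp) and 1 in MC1 cells (Id3). Without single libraries it called 0 to 2. DESeq2 called 1 gene in each day 14 comparison with the minimum of 10 cells and 0 with every library, MC1 cells of every library 1 at day 14 against day 2, and leaving out libraries 0 to 1 there.

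The mural share of all cells (log2) ran from -1.86 to -0.47 at day 2 against sham (-0.99 with all; lowest adjusted p 0.0580), from -1.86 to -0.64 at day 14 against sham and from -0.87 to 0.70 at day 14 against day 2 without single libraries; in cells with at least 800 counts the last was 0.62, and day 14 against sham -0.31 in place of -1.15. Without single libraries the share of mural plus endothelial cells ran, in percentage points, from -2.79 to -1.36 at day 14 against sham, from -0.40 to 0.79 at day 14 against day 2 and from -3.22 to -0.30 in stroke against sham over both ages (-2.35 with all). The smooth muscle share, stroke minus sham over both ages, was -14.3 as a mean over cells (exact permutation p = 0.343, groups overlapping), -10.1 with every library and -26.1 to -16.8 without single libraries, where exact permutation p were 0.0667 to 0.133 and the smaller designs could not pass 0.05. Day 14 minus day 2 it was -20.3 from 1 library each with at least 10 mural cells, and its sign turned to 10.5 with every library and 5.16 without cells holding endothelial markers. The MC2 share, day 14 minus day 2, ran from -18.8 to 7.40. With boundaries at 25% and 75% the smooth muscle range held 51.4% of cells.

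Same-numbered young libraries deviated together in some pairs and not in others: 6 of 12 correlations were above 0.1 (from -0.348 to 0.838), against 12 of 36 between other numbers (from -0.746 to 0.409), so the numbers were not taken as pairs. With a replicate block the mural share differed from sham by -0.81 at day 2 and -1.17 at day 14, and the expression fits of every young library called 0 genes. The block could not be fitted in libraries with at least 10 mural cells. For aged mice that minimum leaves 1 library per group; with every library DESeq2, no TMM, aged libraries alone and each library left out called 0 genes, where a lone aged sham library is assumed to vary like the other groups.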
